A study of Homo sapiens with 15 samples.

Results

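The genes described here are the heat shock proteins and molecular chaperones: the small heat shock proteins (HSPB), the HSP70, HSP110 and HSP90 families, the chaperonins, the J-domain proteins (DNAJA, DNAJB and DNAJC), the BAG nucleotide exchange factors and HSF1. Members were chosen by gene symbol, with pseudogenes, antisense genes and divergent transcripts left out. No measured value entered this rule, though it was set with earlier results of these data known. They number 87 of the 60675 genes in the count table. Enough reads for a test were present for 77 of the 87, among 19012 tested genes in all.

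Chaperones bind unfolded or partly folded proteins and help them reach or regain their shape. HSP70 works in cycles of ATP hydrolysis that J-domain proteins start and nucleotide exchange factors reset, HSP90 takes over clients such as kinases and steroid receptors, and the chaperonins enclose a client in a barrel, TRiC (subunits TCP1 and CCT2 to CCT8) in the cytosol and HSPD1 with its lid HSPE1 in mitochondria. When unfolded proteins build up, the transcription factor HSF1 binds heat shock elements in promoters and raises inducible members such as HSPA1A, HSPA1B, DNAJB1, HSPH1 and HSPB1, while stress in the endoplasmic reticulum raises HSPA5 and HSP90B1. Pluripotent and early differentiating cells are known for high constitutive chaperone levels.

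Polyadenylated RNA was sequenced from the H9 human embryonic stem cell line, wild type per the labels, on day 7 of osteogenic differentiation, in 5 groups of 3 libraries. All cultures differentiated in serum medium, to which ascorbic acid, vitamin D3 and β-glycerophosphate were added from day 5. The control (UNT) was given 0.1% DMSO. The other groups were exposed from day 0 to fine particulate matter (FPM) or to the NIST standard reference material (SRM), at concentrations the labels call the IC25 and IC50: 0.00062 and 1.4 µg/mL for FPM, 0.003 and 5.9 µg/mL for SRM. H9 is a single line, and nothing in the labels says that replicates were separate cultures, so the p-values rest on a spread that may be technical.

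Total counts ran from 9.34 to 58.2 M per library. Antisense genes took 1.07% ± 0.173 of counts at FPM IC25 and 1.21% ± 0.252 at FPM IC50 (SD, n = 3), against 0.282% to 0.303% in the means of the other 3 groups, so the 6 FPM libraries stood apart in a measure that touches any member lying opposite another gene. In UNT, COL1A1 and ALPL of the osteoblast list averaged 231 and 88.3 CPM (counts per 1 M reads, scaled between libraries), but IBSP and BGLAP had too few counts to test; GABRP, of the amnion and trophoblast list, averaged 697 CPM. Cell state markers differed between groups. The summed level of the 8 pluripotency markers was 1431 to 1557 CPM in UNT and 2248 to 2736 CPM at SRM IC50, that of the 10 amnion and trophoblast markers 1113 to 1277 and 282 to 304 CPM, and that of the 8 simple epithelium markers 6588 to 8950 and 2942 to 3959 CPM. The sum of the 8 osteoblast markers was 673 to 768 CPM in UNT and 942 to 1057 CPM at SRM IC50. That of the 8 mesoderm and mesenchyme markers was 555 to 634 and 248 to 284 CPM, and that of the 6 neuroectoderm markers 399 to 437 and 244 to 257 CPM. At the other exposures the pluripotency sum was below UNT, at 1029 to 1051 CPM at FPM IC25, 1059 to 1297 CPM at FPM IC50 and 1058 to 1159 CPM at SRM IC25. All 8 of these markers had negative log2 fold changes in each of these 3 groups, with medians of -0.57, -0.33 and -0.39, and 4, 3 and 3 were called lower. Of 6 neuroectoderm markers 5 were called lower at FPM IC25 (summed level 175 to 282 CPM, against 399 to 437 CPM in UNT) and 0 at FPM IC50 and SRM IC25, and of the 10 amnion and trophoblast markers 4 were called higher at FPM IC50. The part of these shifts in the chaperone results was not tested, and in bulk RNA fewer cells of a type and less RNA per cell cannot be told apart.

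In UNT the 87 genes together held 15048 to 17247 CPM per library. Levels between genes are compared per length, as FPKM (fragments per kilobase and per 1 M reads). HSP90AB1, the constitutive cytosolic HSP90, was first at 826 ± 37.4 FPKM (SD, n = 3), above the inducible form HSP90AA1 at 343 ± 36.3 and the constitutive HSP70 HSPA8 at 343 ± 3.60, which did not differ beyond their spread. HSP90B1 of the endoplasmic reticulum followed at 214 ± 24.5, then the mitochondrial chaperonin HSPD1 at 204 ± 21.1 and the reticulum HSP70 HSPA5 at 178 ± 13.3; the libraries of neighbours in this stretch overlapped. The abundant J-domain partner was DNAJA1 at 137 ± 10.3 FPKM, level with the TRiC subunit CCT4 at 138 ± 7.78. The stress-inducible genes were lower: HSPB1 was at 55.7 ± 11.4, DNAJB1 at 31.6 ± 0.795, HSPH1 at 22.4 ± 1.61, HSPA1B at 14.2 ± 1.75 and HSPA1A at 9.43 ± 1.17 FPKM. HSF1 was at 12.6 ± 0.495 FPKM, and HSPA6, the strictly inducible HSP70, at 0.0312 ± 0.0153 FPKM.

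**Figure D1:**
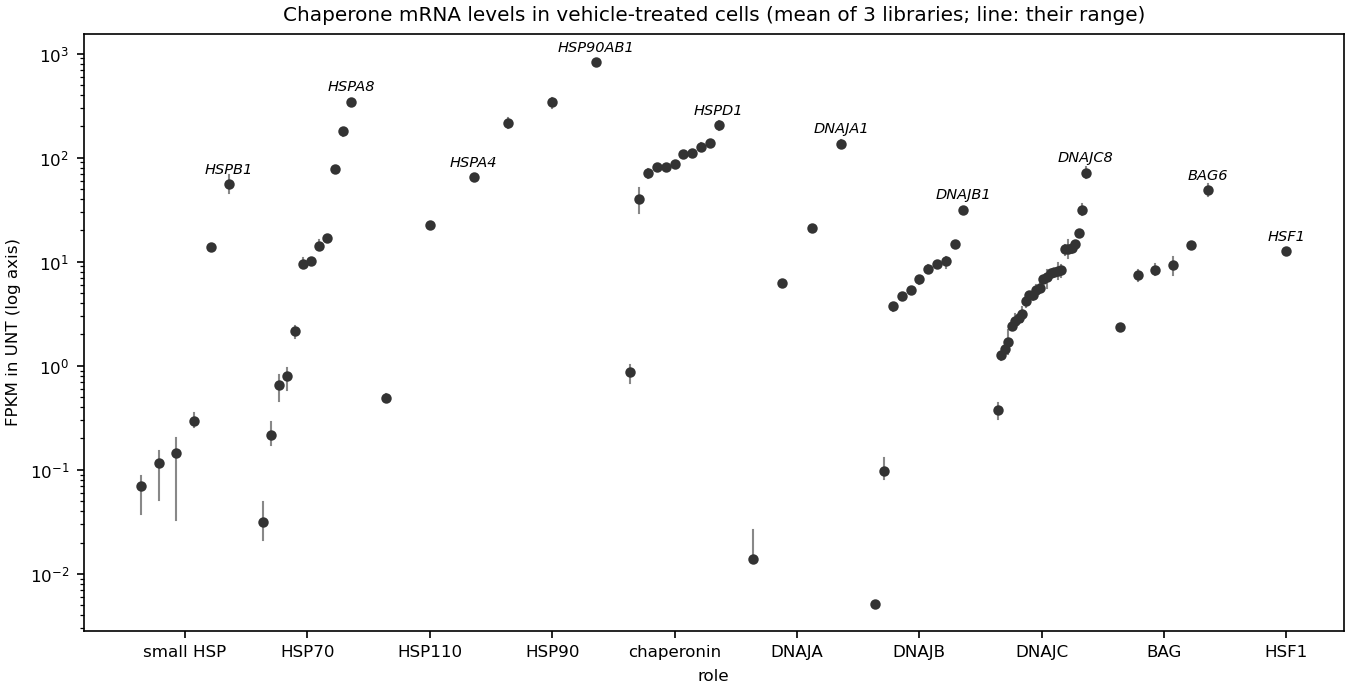
FPKM (log axis) of each chaperone gene above 0 in the 3 UNT libraries, by role, with points at the mean and lines over the range of the 3 libraries (values of 0 left off). HSP90AB1 is highest at 826 FPKM, and most small heat shock proteins apart from HSPB1 (55.7 FPKM) and HSPB8 (14 FPKM) lie below 1 FPKM.

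Across the exposures the data showed a pair of patterns. At FPM IC25, FPM IC50 and SRM IC25 58, 53 and 56 of the 77 tested members sat below UNT, most of them slightly, with called falls in each of the 3 groups for the abundant chaperones HSP90AA1, HSP90B1, HSPD1 and CCT8. At SRM IC50 these genes were near UNT, whereas the small heat shock protein HSPB8 and its partner BAG3 fell, the first by 1.62 on the log2 scale, and DNAJB5, BAG2, HSPA12A and HSPA12B rose. A member was called when edgeR's adjusted p over all 19012 genes was under 0.05.
At FPM IC25, 1 member was higher and 11 lower than UNT; lower calls made up 14.3% of the members tested against 3.51% of all genes, and higher calls 1.30% against 10.7%, out of 14.2% of all genes called either way. At FPM IC50, 2 were higher and 16 lower (20.8% lower, against 2.77% of all genes; 10.8% of all genes were higher and 13.6% called either way). At SRM IC25, 0 were higher and 10 lower (13%, against 3.38% of all genes; 0.989% of all genes were higher and 4.37% called either way). At SRM IC50, 9 were higher and 9 lower, 11.7% each way, close to the 7.96% and 9.59% of all genes (17.6% either way). Median log2 fold changes of the 77 were -0.17, -0.16, -0.15 and 0.01 in the same order, beside medians of all genes of 0.00, 0.01, 0.02 and 0.00. The 4 comparisons share the UNT libraries. In all, 36 members were called in at least 1 of them and 41 in none.

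The falls were small and not steady to the choice of libraries. The pluripotency markers were low in the same 3 groups, as given above, and their part in the falls was not tested. Without UNT replicate 2, 2 members were called at FPM IC25, 6 at FPM IC50 and 0 at SRM IC25, and without UNT replicate 3, 6, 11 and 0 were. The share of all genes called in fits that leave out 1 library is not given here. A loss of calls in them therefore cannot be read as particular to the members. Leaving out an exposed library also moved counts: FPM IC25 gave 6 without its replicate 2 and 7 without its replicate 3, FPM IC50 gave 10 without its replicate 1, and SRM IC25 gave 3 without its replicate 1 and 0 without its replicate 2 or its replicate 3. At SRM IC50, 10 members were called without UNT replicate 3, 10 without SRM IC50 replicate 1 and 11 without SRM IC50 replicate 2. Members called in each of the 6 fits that leave out 1 library were DNAJB7 and DNAJC2 at FPM IC25, DNAJB7, DNAJC2, DNAJC7, CCT8, HSPD1 and HSPB8 at FPM IC50, none at SRM IC25, and BAG2, BAG3, DNAJB5, DNAJB6, DNAJB9, DNAJC6, HSPA12B, HSPA9, HSPB7 and HSPB8 at SRM IC50. DNAJB7 was the 1 member called higher at FPM IC25 and 1 of the 2 at FPM IC50. It passed the low-count filter through the FPM libraries alone, so its calls are a description.

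**Figure D2:**
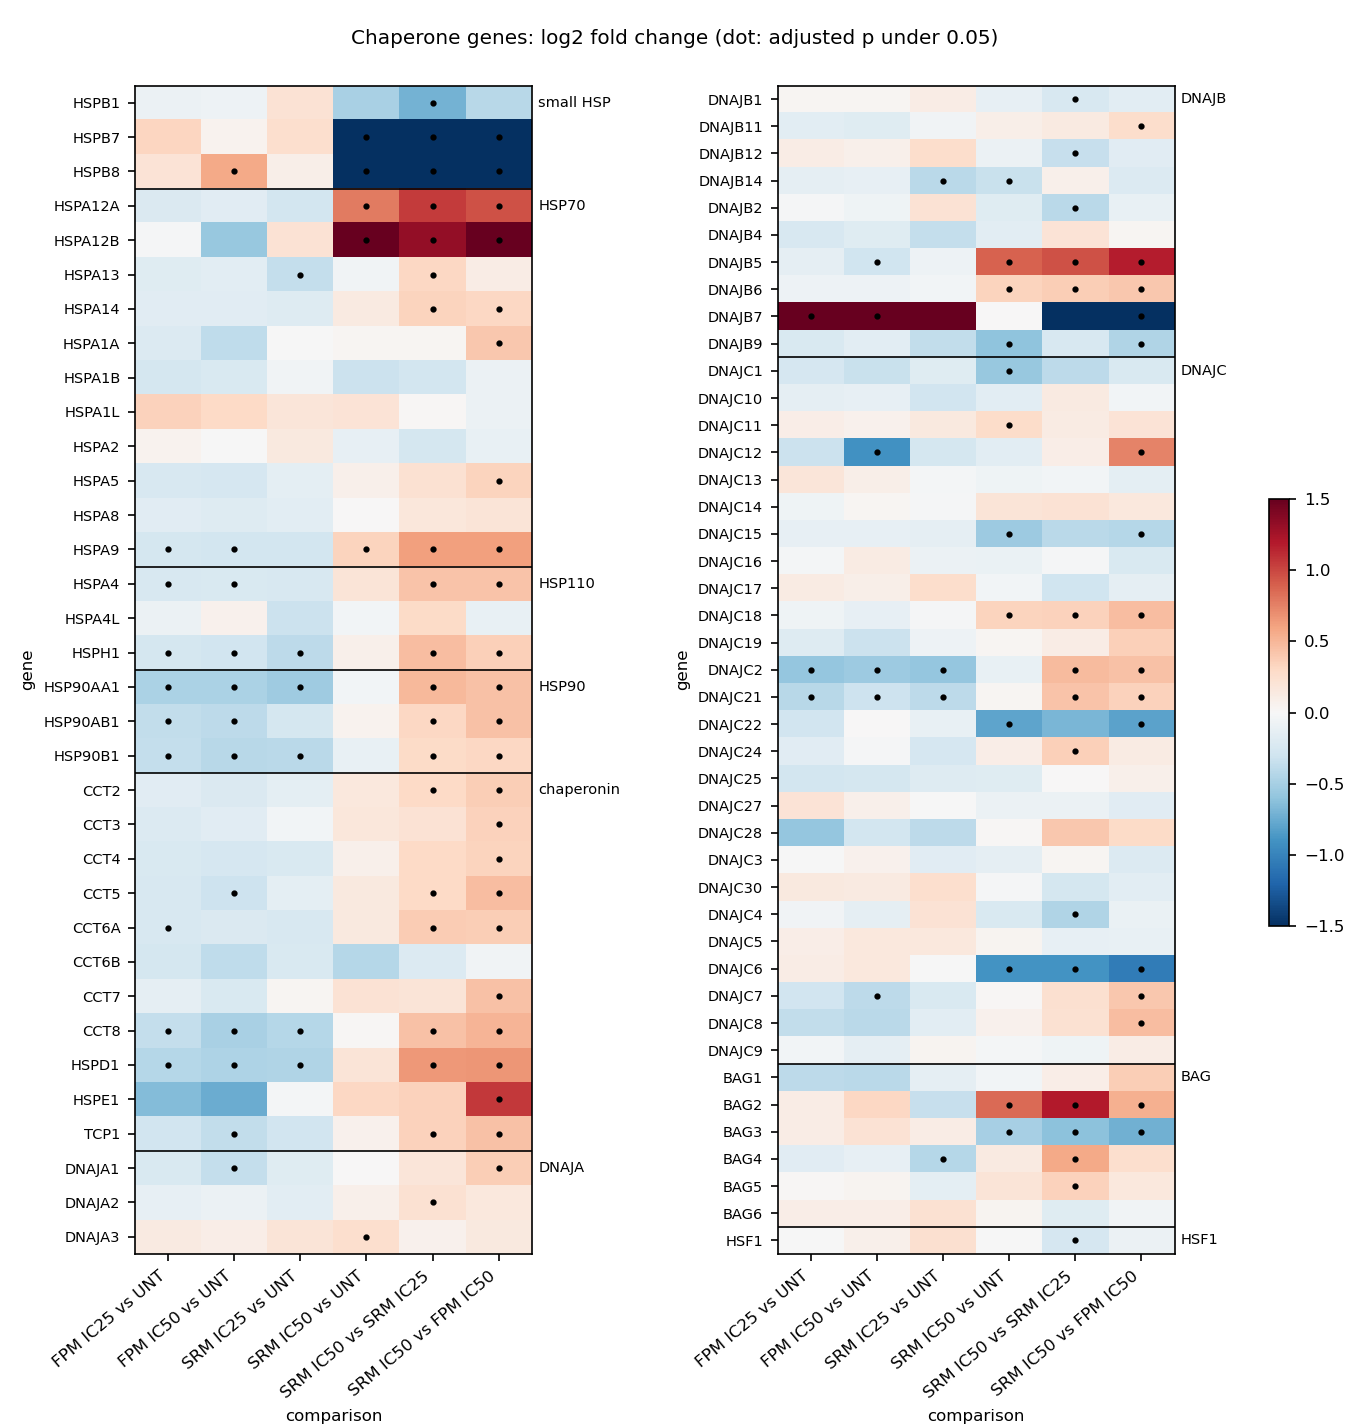
Log2 fold change (colour, ending at ±1.5) of the 77 tested chaperone genes in 6 comparisons (columns), grouped by role and with a dot where edgeR's adjusted p was under 0.05. The first 3 columns are mostly pale blue, with dots on HSP90AA1, HSP90B1, CCT8 and HSPD1, while the columns with SRM IC50 first show blue for HSPB7, HSPB8, BAG3 and DNAJC6 and red for HSPA12B, DNAJB5 and BAG2.

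In edgeR's fit to all 15 libraries, neither HSF1 nor the textbook inducible members HSPA1A, HSPA1B, DNAJB1, HSPH1 and HSPB1 were called higher than UNT in any exposed group. HSF1 was at 70.1, 68.0 and 69.2 CPM in UNT and at 69.4, 67.1 and 69.9 CPM at SRM IC50, a log2 fold change of -0.01 ± 0.08 (SE, edgeR adjusted p = 0.99). At SRM IC25 HSF1 read 78.1, 85.4 and 81.6 CPM, above each UNT library. DESeq2 and a fit with a replicate block called it higher there. Against SRM IC25, edgeR called HSF1 and DNAJB1 lower at SRM IC50. These calls were kept in 2 and 1 of 6 fits that leave out 1 library, and both were lost with a GC trend removed. HSPA1A, the inducible HSP70, was at 21.9, 22.4 and 28.2 CPM in UNT and at 21.5, 21.7 and 31.4 CPM at SRM IC50, and the groups overlapped (0.02 ± 0.15, adjusted p = 0.96). Its copy HSPA1B read 33.6, 34.4 and 43.2 CPM in UNT and 25.9, 28.0 and 35.6 CPM at SRM IC50 (-0.32 ± 0.13, adjusted p = 0.12). The coding parts of the pair are nearly identical, so reads may have been split between them; together they held 56 to 71 CPM in UNT and 47 to 67 CPM at SRM IC50. DNAJB1, the J-domain partner of inducible HSP70, was at 114, 120 and 126 CPM in UNT and a little lower at 108, 111 and 110 CPM at SRM IC50, without overlap but short of a call (-0.13 ± 0.08, adjusted p = 0.35). At FPM IC50 HSPA1A read 18.1, 17.5 and 20.0 CPM, below each UNT library (-0.38 ± 0.15, adjusted p = 0.12), and DNAJB1 read 127, 109 and 131 CPM (0.03 ± 0.08, adjusted p = 0.87). A replicate block and a fit with no low-count filter called HSPA1A lower at FPM IC50. The block also called HSPA1B lower at FPM IC25 and SRM IC50. HSPA6 had 4 counts over the UNT libraries, 1, 3, 3 and 1 counts over those at FPM IC25, FPM IC50, SRM IC25 and SRM IC50, at or near the floor of 3 counts.

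Promoter sequences (RefSeq, GRCh38.p14) were found for 77 of the 87 genes. In the 250 bases before a start, the heat shock element core GAANNTTC or TTCNNGAA (both strands, N any base) occurred in 24 of these (31.2%), against 14% of the 27305 genes in the table. The longer element of 3 adjoining units (a core followed by any 2 bases and a further GAA or TTC) occurred in 6 (7.79%, against 0.557%): DNAJB6, HSP90AA1, HSP90AB1, HSPA6, HSPA8 and HSPD1. By role, the core was found in 5 of 10 HSP70 genes, 4 of 6 small heat shock genes, 4 of 12 DNAJB genes, 4 of 11 chaperonin genes and 1 of 23 DNAJC genes. A match is a stretch of letters, not a shown binding site. The HSPA1A and HSPA1B windows, shown because both genes are the classic inducible pair, shared 235 of 249 aligned bases (94.4%). Capitals mark the core; the stretches stop at the first annotated exon.
HSPA1A (chr6:31815293-31815463, plus strand): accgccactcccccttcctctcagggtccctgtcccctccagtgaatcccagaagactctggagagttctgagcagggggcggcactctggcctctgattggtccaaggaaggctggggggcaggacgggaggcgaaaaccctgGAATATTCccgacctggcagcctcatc
HSPA1B (chr6:31827488-31827734, plus strand): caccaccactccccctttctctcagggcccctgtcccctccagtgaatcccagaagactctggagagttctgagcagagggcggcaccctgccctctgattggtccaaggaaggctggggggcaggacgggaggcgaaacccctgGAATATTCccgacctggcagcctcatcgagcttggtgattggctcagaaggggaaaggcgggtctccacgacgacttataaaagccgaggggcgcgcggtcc

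The same core, GAATATTC, stood 88 bases before a start of HSPB8, which was called lower at SRM IC50. Sites of 30 bases are given for that gene and for members discussed below, again with the element in capitals. That of DNAJB6 lies outside annotated exons (GENCODE 29, any gene on either strand), and those of the other 5 genes lie wholly within annotated exons. That of HSPB8 lies downstream of the gene's annotated start at 119178642. The sites of DNAJB6, HSP90AA1, HSPD1 and HSPA8 likewise lie downstream of their gene's annotated start, and that of BAG2 lies upstream of it.
HSPB8 (chr12:119178832-119178861, plus strand): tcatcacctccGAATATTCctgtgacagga
DNAJB6 (chr7:157336865-157336894, plus strand): agagccgaGAACCTTCGCGAAggtggggcg
BAG2 (chr6:57172191-57172220, plus strand): tcgaccgatagGAACCTTCgcgtgggggga
HSP90AA1 (chr14:102087111-102087140, minus strand): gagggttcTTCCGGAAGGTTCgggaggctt
HSPD1 (chr2:197500061-197500090, minus strand): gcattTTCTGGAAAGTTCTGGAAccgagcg
HSPA8 (chr11:123062170-123062199, minus strand): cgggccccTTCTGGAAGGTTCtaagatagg
HSP90AB1, which had a pair of these longer elements before 1 of its 3 listed starts, is shown for that start up to the annotated exon. This stretch too lies downstream of the gene's annotated start, at 44246166.
HSP90AB1 (chr6:44247693-44247865, plus strand): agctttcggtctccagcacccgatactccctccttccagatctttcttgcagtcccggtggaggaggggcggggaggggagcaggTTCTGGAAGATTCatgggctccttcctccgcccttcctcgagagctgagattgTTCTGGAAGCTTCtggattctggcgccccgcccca
The 6 genes with the longer element did not move as one at SRM IC50 against UNT: DNAJB6 rose by 0.34, HSPD1, HSP90AB1, HSPA8 and HSP90AA1 had log2 fold changes of 0.20, 0.05, 0.01 and -0.04 without a call, and HSPA6 could not be tested.

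HSP90 fell at both FPM doses and in part at SRM IC25. HSP90AA1 (chr14:102080738-102139699, minus strand, GRCh38) was at 1583, 2017 and 1982 CPM in UNT, where replicate 1 lay low, and at 1399, 1312 and 1315 CPM at FPM IC25, 1218, 1414 and 1393 CPM at FPM IC50, and 1187, 1357 and 1325 CPM at SRM IC25. Every one of these 9 libraries was below the lowest UNT library. Log2 fold changes were -0.47 ± 0.12, -0.47 ± 0.12 and -0.53 ± 0.12 (SE; edgeR adjusted p = 0.011, 0.011 and 0.027). At SRM IC50 it read 1597, 1745 and 2095 CPM, overlapping UNT (-0.04 ± 0.12, adjusted p = 0.89). HSP90AB1 (chr6:44246166-44253888, plus strand) was at 2331, 2616 and 2671 CPM in UNT, at 2024, 1867 and 2003 CPM at FPM IC25 and at 1873, 1933 and 2013 CPM at FPM IC50, and fell by 0.37 and 0.39 on the log2 scale (adjusted p = 0.016 and 0.011). At SRM IC25, 1936, 2148 and 2281 CPM also lay below UNT without a call (-0.26 ± 0.10, adjusted p = 0.13). HSP90B1, the reticulum form, was called lower in all 3 groups, at -0.35, -0.42 and -0.40, and not at SRM IC50 (-0.11, adjusted p = 0.52). Without UNT replicate 2, none of HSP90AA1, HSP90AB1 and HSP90B1 was called at FPM IC25, FPM IC50 or SRM IC25. HSP90AB1 also lost its calls at both FPM doses without UNT replicate 3, and at FPM IC25 without FPM IC25 replicate 2. When only the 2 groups compared were fitted, HSP90AB1 and HSP90B1 lost their calls at both FPM doses. HSP90AA1 also lost its call without UNT replicate 3 at FPM IC25 and without FPM IC50 replicate 1 at FPM IC50. HSP90B1 at FPM IC25 lost its call without UNT replicate 3, FPM IC25 replicate 2 or FPM IC25 replicate 3. At SRM IC25, HSP90AA1 and HSP90B1 were called only when UNT replicate 1 was the library left out.

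**Figure D3:**
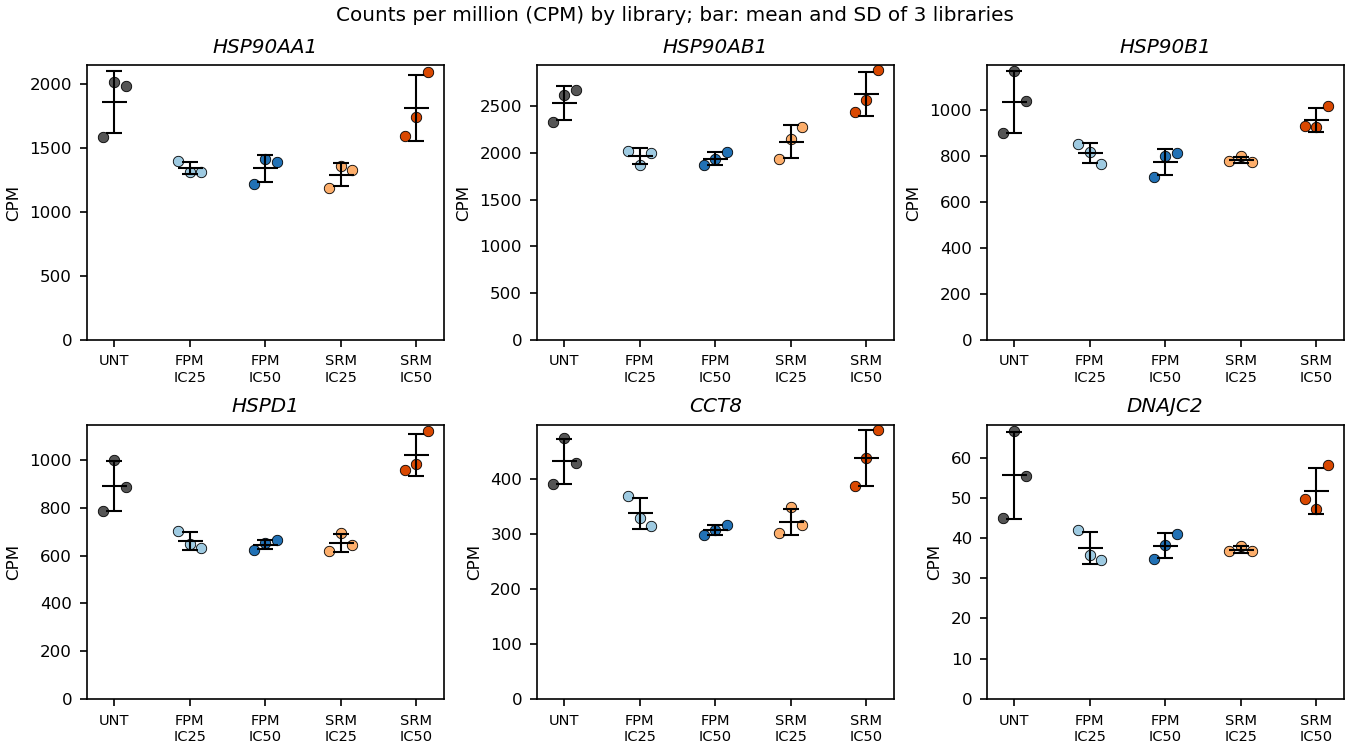
CPM (axis from 0) of 6 chaperone genes in each library, with the mean and SD of the 3 libraries of each group as bars. For HSP90AA1 and HSPD1, the 9 libraries at FPM IC25, FPM IC50 and SRM IC25 lie below all 3 UNT libraries, while those at SRM IC50 lie among or above them.

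Among the chaperonins the same 3 groups were low. HSPD1, the barrel of the mitochondrial chaperonin (chr2:197486581-197516737, minus strand), was at 787, 1000.1 and 889 CPM in UNT, at 703, 648 and 633 CPM at FPM IC25, at 624, 652 and 664 CPM at FPM IC50 and at 620, 693 and 646 CPM at SRM IC25. No exposed library of these 9 reached the UNT range, and its log2 fold changes were -0.43, -0.46 and -0.45, each ± 0.10 (adjusted p = 0.0057, 0.0031 and 0.026). The FPM IC25 call was lost without UNT replicate 2, and the SRM IC25 call without any 1 library other than UNT replicate 1. At SRM IC50 it was at 961, 982 and 1124 CPM (0.20 ± 0.10, adjusted p = 0.21). CCT8 of TRiC was at 392, 475 and 430 CPM in UNT and at 299, 308 and 316 CPM at FPM IC50 (-0.49 ± 0.10, adjusted p = 0.0026). Of the 8 TRiC subunits, 2 were called lower at FPM IC25, 3 at FPM IC50, 1 at SRM IC25 and 0 at SRM IC50, and their median log2 fold changes were -0.23, -0.24, -0.19 and 0.15. Lower calls made up 25%, 37.5%, 12.5% and 0% of the subunits, beside 3.51%, 2.77%, 3.38% and 9.59% of all genes. HSPE1, the lid of the HSPD1 barrel, varied within UNT at 57.9, 82.2 and 106 CPM and reached no call against UNT in any group. It read 59.5, 41.4 and 56.4 CPM at FPM IC25 and 45.9, 42.7 and 58.4 CPM at FPM IC50. A replicate block and a fit with no low-count filter called it lower at both FPM doses, and DESeq2 at FPM IC50. At SRM IC50 it was called higher than at FPM IC50, also in each of 6 fits that leave out 1 library. Its exons overlap those of HSPD1 on the other strand.

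Of the HSP110 family, which serve as exchange factors of HSP70, HSPA4 and HSPH1 were low and HSPA4L had no call. HSPH1 was at 179, 211 and 190 CPM in UNT and at 149, 151 and 142 CPM at SRM IC25, where it was lowest (-0.39 ± 0.08, adjusted p = 0.023), and fell by 0.26 and 0.28 at FPM IC25 and FPM IC50. HSPA4 fell by 0.25 and 0.23 at the FPM doses (adjusted p = 0.034 and 0.046). Of 6 fits that leave out 1 library, HSPA4 was called in 1 at either FPM dose. HSPH1 was called in 2 at FPM IC25, 3 at FPM IC50 and 2 at SRM IC25. With a GC trend removed, both genes lost all these calls. The constitutive HSP70 HSPA8 was at 1645, 1729 and 1773 CPM in UNT and at 1397, 1476 and 1640 CPM at FPM IC50, below each UNT library but not called (-0.19 ± 0.09, adjusted p = 0.24). HSPA5, the reticulum HSP70 and the usual gauge of reticulum stress, was not called in any exposed group in the fit to all 15 libraries. Its log2 fold changes were -0.24, -0.25, -0.15 and 0.08 at FPM IC25, FPM IC50, SRM IC25 and SRM IC50. With a replicate block, and without UNT replicate 1, HSPA5 was called lower at FPM IC50. Its promoter is shown because, with that of HSP90B1, it is 1 of 2 member promoters (2.60%, against 0.0916% of all genes) that hold the endoplasmic reticulum stress element on either strand, in capitals.
HSPA5 (chr9:125241344-125241593, minus strand): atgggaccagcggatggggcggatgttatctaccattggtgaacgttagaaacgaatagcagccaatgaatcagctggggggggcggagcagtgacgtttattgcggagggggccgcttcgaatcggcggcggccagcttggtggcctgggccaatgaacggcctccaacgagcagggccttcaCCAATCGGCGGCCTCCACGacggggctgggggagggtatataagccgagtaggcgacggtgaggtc

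HSPA9, the mitochondrial HSP70, was the HSP70 gene with calls in opposite directions. It was at 355, 405 and 375 CPM in UNT, at 319, 318 and 312 CPM at FPM IC25 (-0.26 ± 0.08, adjusted p = 0.035), at 298, 318 and 321 CPM at FPM IC50 (-0.28 ± 0.08, adjusted p = 0.024), and at 473, 470 and 491 CPM at SRM IC50 (0.34 ± 0.08, adjusted p = 0.0056). The groups at either FPM dose lay wholly below UNT and the SRM IC50 group wholly above it. The FPM IC25 call was kept in 1 of 6 fits that leave out a library, the one without UNT replicate 1, and the FPM IC50 call was lost without UNT replicate 2, UNT replicate 3 or FPM IC50 replicate 1. The distant HSP70 relatives HSPA12A and HSPA12B also rose at SRM IC50. HSPA12B (chr20:3732667-3753111, plus strand) was at 0.547, 0.940 and 0.610 CPM in UNT, a total of 37 counts, and at 2.31, 2.09 and 1.49 CPM at SRM IC50, a total of 126 counts (1.53 ± 0.30, adjusted p = 0.0019). HSPA12A was at 5.47, 4.93 and 3.29 CPM in UNT and at 8.92, 8.60 and 5.80 CPM at SRM IC50 (0.78 ± 0.20, adjusted p = 0.012), and lost its call without UNT replicate 3 or SRM IC50 replicate 1 or 2.

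J-domain proteins choose the clients and sites at which HSP70 acts, and their changes at SRM IC50 went both ways. DNAJB5 (chr9:34989641-34998900, plus strand) was at 28.1, 28.1 and 30.0 CPM in UNT and at 52.3, 53.3 and 52.9 CPM at SRM IC50, with every exposed library far above UNT (0.88 ± 0.08, adjusted p = 1.2e-06). DNAJB6, a suppressor of protein aggregation, was at 147, 149 and 145 CPM in UNT and at 190, 176 and 190 CPM at SRM IC50 (0.34 ± 0.07, adjusted p = 0.0024). In the other direction, DNAJC6, the auxilin that helps HSP70 uncoat clathrin vesicles, went from 38.9, 42.8 and 34.3 CPM to 22.8, 20.2 and 19.1 CPM (-0.90 ± 0.15, adjusted p = 0.00047). DNAJB9, a reticulum J-domain protein, went from 24.5, 30.5 and 33.4 CPM to 18.3, 17.8 and 22.3 CPM (-0.61 ± 0.13, adjusted p = 0.0041). The reticulum protein DNAJC1, the mitochondrial protein DNAJC15 and DNAJC22 also fell, by 0.57, 0.55 and 0.79. DNAJC1 and DNAJC15 lost their calls without UNT replicate 3, SRM IC50 replicate 1 or SRM IC50 replicate 2, and DNAJC22 without any 1 library other than UNT replicate 1. Of 10 DNAJB genes tested at SRM IC50, 2 rose and 2 fell, and of 26 DNAJC genes 2 rose and 4 fell, with medians of -0.11 and -0.05. That is 20% each way for DNAJB, and 7.69% higher and 15.4% lower for DNAJC. Beside these, 7.96% of all genes were higher and 9.59% lower, so the DNAJC shares were near those of all genes.

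At the other exposures DNAJC2, a ribosome-bound J-domain protein, and DNAJC21, which acts in ribosome assembly, fell. DNAJC2 was at 45.0, 66.6 and 55.3 CPM in UNT, again lowest in replicate 1, and at 42.0, 35.7 and 34.6 CPM at FPM IC25, 34.9, 38.2 and 41.1 CPM at FPM IC50 and 36.7, 38.1 and 36.7 CPM at SRM IC25. All 9 were below UNT (-0.58, -0.55 and -0.58, each ± 0.13; adjusted p = 0.0039, 0.0067 and 0.026, the last kept only in the fit without UNT replicate 1), and at SRM IC50 the value was -0.11 ± 0.13 (adjusted p = 0.65). DNAJC21 had log2 fold changes of -0.42, -0.31 and -0.40 in these 3 groups (adjusted p = 0.0059, 0.04 and 0.034). Its calls were kept in 5, 2 and 1 of 6 fits that leave out 1 library, in the same order. DNAJB14 was called lower at SRM IC25, at 43.4, 36.9 and 34.7 CPM against 51.2, 54.5 and 46.6 CPM in UNT. DNAJC12 was called lower at FPM IC50, at 1.66, 1.69 and 2.63 CPM against 2.74, 3.41 and 4.94 CPM in UNT. The DNAJB14 call was kept in 1 of 6 such fits and the DNAJC12 call in 2, and both were lost with a GC trend removed.

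The most marked change of any well-measured member was that of HSPB8, a small heat shock protein that with BAG3 and HSP70 sends damaged proteins to selective autophagy (chr12:119178642-119221131, plus strand). It was at 40.3, 39.5 and 44.0 CPM in UNT and at 14.7, 13 and 12.3 CPM at SRM IC50, with a wide gap between the groups (-1.62 ± 0.14, adjusted p = 4.6e-07). At SRM IC25 it was at 44.3, 48.5 and 38.3 CPM, across the UNT range, and at FPM IC50 at 53.1, 56.1 and 75.0 CPM, above it (0.57 ± 0.13, adjusted p = 0.0045). BAG3 (chr10:119651370-119677819, plus strand) was at 38.3, 40.7 and 44.0 CPM in UNT and at 29.1, 26.9 and 31.0 CPM at SRM IC50, without overlap (-0.50 ± 0.12, adjusted p = 0.006), and at 39.7, 46.0 and 57.5 CPM at FPM IC50 (0.22 ± 0.12, adjusted p = 0.27). HSPB7, which muscle is known to express strongly, had 63 counts over the UNT libraries and 13 at SRM IC50; it was 5.48-fold lower (95% interval 2.99 to 10.9, counting error only), was called (adjusted p = 6.1e-05), and is named here after its values were seen. HSPB1 was at 74.8, 90.1 and 117 CPM in UNT and at 56.4, 56.0 and 89.9 CPM at SRM IC50, with overlap and no call (-0.49 ± 0.20, adjusted p = 0.12). It was called lower with a GC trend removed (adjusted p = 0.046), with no low-count filter (0.00052), without UNT replicate 1 (0.049) and without SRM IC50 replicate 3 (0.011).

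BAG2, which inhibits the CHIP ubiquitin ligase on HSP70, moved against BAG3. It was at 16.0, 16.4 and 16.0 CPM in UNT, at 27.6, 26.8 and 33.0 CPM at SRM IC50 (0.85 ± 0.11, adjusted p = 3.1e-05) and at 11.7, 13.8 and 12.2 CPM at SRM IC25, below UNT but not called (-0.35 ± 0.11, adjusted p = 0.079). BAG4 was called lower at SRM IC25, at 32.4, 30.1 and 29.4 CPM against 45.2, 40.4 and 38.1 CPM in UNT. That call was kept in 0 of 6 fits that leave out 1 library. Of the 6 BAG genes, BAG2 rose and BAG3 fell at SRM IC50, and the other 4 were not called. These are 16.7% each way, beside 7.96% and 9.59% of all genes higher and lower. The cell state markers given above moved with these genes. Summed muscle markers were at 405 to 461 CPM in UNT and 298 to 380 CPM at SRM IC50; of 7 in this list, MYOG had 0 counts in both groups, TNNT2 and MYH6 fell and DES rose. The part of any of these lists in the HSPB8, HSPB7, BAG3 and BAG2 results was not tested.

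**Figure D4:**
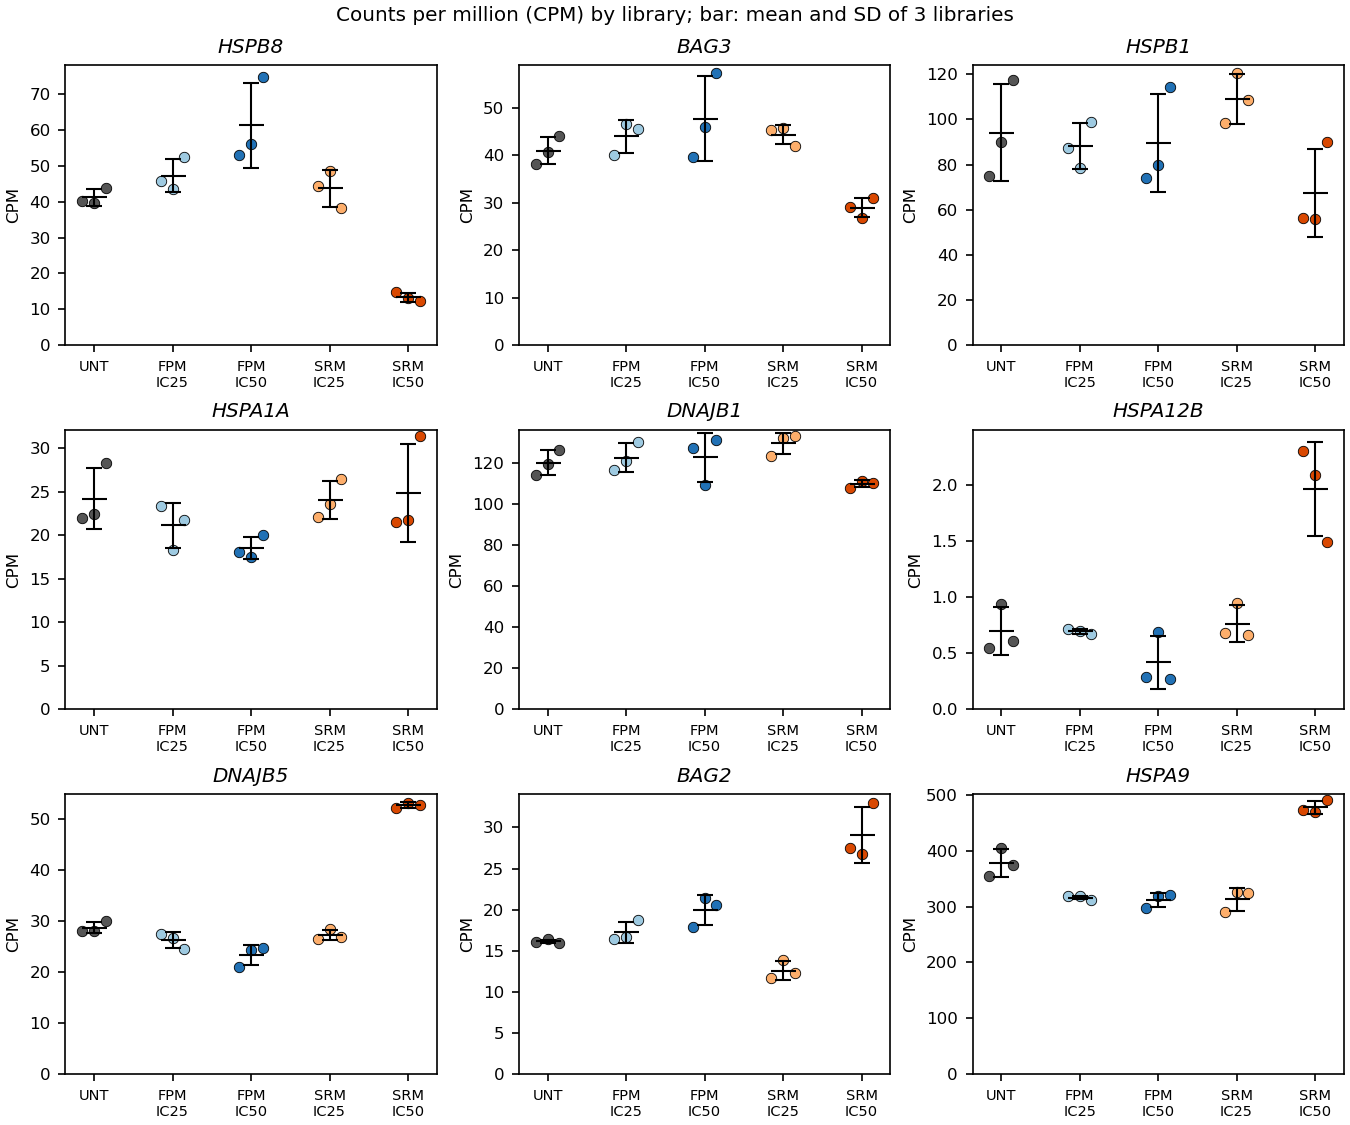
CPM (axis from 0) of 9 chaperone genes in each library, with the mean and SD of the 3 libraries of each group as bars. At SRM IC50, HSPB8 (12.3 to 14.7 CPM) and BAG3 lie below every other group and DNAJB5, BAG2, HSPA12B and HSPA9 above, while HSPA1A and HSPB1 overlap UNT.

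Comparisons of SRM IC50 with the other exposures set the patterns side by side. Against SRM IC25, 26 members were higher and 10 lower (33.8% and 13%, beside 13.7% and 13.2% of all genes, and 26.9% either way), with a median of 0.17 beside -0.02 for all genes. All 3 HSP90 genes, 5 of 8 TRiC subunits and 5 of 11 HSP70 genes were higher, and all 3 tested small heat shock genes lower. Against FPM IC50, 32 were higher and 8 lower (41.6% and 10.4%, beside 16.2% and 23.2%, and 39.3% either way), among them all 3 HSP90 genes and all 8 TRiC subunits on the higher side. HSPD1 was 0.65 ± 0.10 higher than at SRM IC25 and 0.66 ± 0.10 higher than at FPM IC50 (adjusted p = 0.00016 and 5.7e-05). HSP90AA1 was 0.49 ± 0.12 and 0.43 ± 0.12 higher (adjusted p = 0.0058 and 0.0081). HSPB8 was lower by both measures, at -1.70 ± 0.14 and -2.19 ± 0.14 (adjusted p = 1.9e-07 and 4e-09). HSPB1 differed between the SRM doses, from 98.5, 120 and 109 CPM at the IC25 to 56.4, 56.0 and 89.9 CPM at the IC50 (-0.71 ± 0.20, adjusted p = 0.016), and lost that call without SRM IC25 replicate 2 or SRM IC50 replicate 1 or 2. Against SRM IC25, HSP90B1 was called in 0 of the 6 fits that leave out 1 library, nor with a GC trend removed (adjusted p = 0.21), and HSP90AB1 in 2, those without SRM IC25 replicate 3 or SRM IC50 replicate 1. Of the TRiC subunits CCT5 was called in 2 of these fits, CCT2 in 3 and TCP1 in 4, while HSP90AA1, CCT6A, CCT8 and the 5 HSP70 genes were called in all 6. Against FPM IC50, HSP90B1 and CCT3 were called in 4 of 6 and CCT4 in 3, and the other HSP90 genes and TRiC subunits in all 6. In each of 6 fits that leave out 1 library, 23 of the 36 members called against SRM IC25 and 28 of the 40 called against FPM IC50 were called again. The 28 include DNAJB7, which passed the low-count filter through the FPM libraries alone. The mass doses differ between the particles. Between the FPM doses, 0 members were called by edgeR or DESeq2, beside 0.0105% of all genes; at an unadjusted p under 0.05, 1 was higher and 1 lower.

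Base composition moved with the fold changes at SRM IC25, and less so at the other exposures. The median GC content of the longest transcript was 44.6% for the 77 members and 48.5% for all genes. Across the 77 members, Spearman's correlation of log2 fold change with GC was 0.67 at SRM IC25, 0.27 at FPM IC25, 0.14 at FPM IC50 and 0.08 at SRM IC50, all against UNT; across 18850 genes it was 0.57, 0.25, 0.20 and 0.14. These are descriptions over genes of the same libraries, not over replicates. Members called lower at SRM IC25 had a median GC of 40.6% and those not called 45.9%. With a smooth GC trend removed from each library, 0 members were called at SRM IC25, 6 at FPM IC25, 11 at FPM IC50 and 18 at SRM IC50, beside 0%, 12%, 12% and 18.1% of all genes. HSP90B1 and CCT8 were among those lost at FPM IC25. For SRM IC50 against SRM IC25, the correlation was -0.29 over the members and -0.26 over all genes. Median GC was 43.4% for members called higher there and 57.7% for those called lower. With the trend removed, 25 of these 36 calls were kept. HSP90B1, CCT5, TCP1, DNAJB1 and HSF1 were among those lost, and the share of all genes called is not given here.

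**Figure D5:**
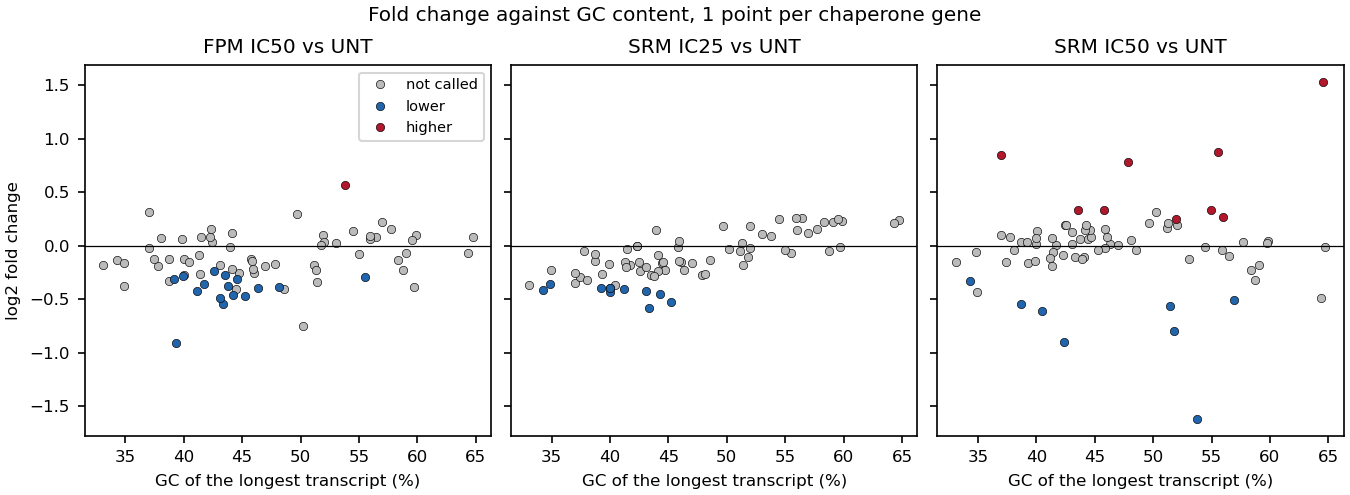
Log2 fold change against UNT of each chaperone gene with adequate counts (vertical axis) by GC content of its longest transcript in percent (horizontal axis), coloured by edgeR's call. At SRM IC25 the points climb with GC (Spearman 0.67) and the called genes lie mostly at the low GC end, whereas at SRM IC50 (Spearman 0.08) called genes lie on both sides of 0 from low to high GC.

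DNAJB7 had the highest fold change of any member and is uncertain; it is named here after its values were seen. It had 0 counts in all 3 UNT libraries and at SRM IC50, 1.95, 1.53 and 1.08 CPM at FPM IC25 and 1.66, 1.24 and 0.724 CPM at FPM IC50. Against a floor of 3 counts over the UNT group it was at least 22.8-fold higher at FPM IC25 and at least 21.5-fold higher at FPM IC50, and it passed the low-count filter through the FPM libraries alone. Its exons lie opposite those of XPNPEP3, which was at 24.0, 23.4 and 25.1 CPM in UNT and at 22.5, 21.7 and 21.5 CPM at FPM IC25, in the libraries whose antisense share is raised. Chosen after seeing the data, a further fit kept the genes that have nothing annotated on the other strand within 5 kb. Of 15 such members 0 were called at FPM IC25, 0 at FPM IC50, 2 at SRM IC25 and 5 at SRM IC50, beside 0.824%, 0.0236%, 1.25% and 24.8% of all genes in that fit. HSPH1 and HSPA9 were in it without a call at either FPM dose, and DNAJC21 without a call at FPM IC25, FPM IC50 or SRM IC25.

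Genes that work with the chaperones but are not members were read from fixed lists. Of 16 co-chaperones of HSP90 and HSP70, 1 fell at FPM IC25 (PTGES3, -0.29), edgeR called 0 at FPM IC50 (5 lower and 0 higher at an unadjusted p under 0.05), and at SRM IC25 CDC37 rose by 0.38 and CHORDC1 fell by 0.32. At SRM IC50 3 rose, beside 7.96% of all genes, and 0 fell: FKBP5, an HSP90 partner of steroid receptors, from 40.4 ± 7.70 to 81.1 ± 10.3 CPM (1.01 ± 0.14, adjusted p = 7.3e-05), PPP5C by 0.28 and STIP1 by 0.24. Against FPM IC50, 8 of the 16 were higher, beside 16.2% of all genes. Of 6 prefoldin subunits, which hand actin and tubulin to TRiC, VBP1 fell at FPM IC25 and FPM IC50 (-0.37 and -0.42) and none was called at either SRM dose. All 6 had negative log2 fold changes at both FPM doses, with medians of -0.31 and -0.37, against medians of 0.06 at SRM IC25 and 0.01 at SRM IC50. Of 12 folding factors of the endoplasmic reticulum, edgeR called 0 in any of the 4 groups. Of 8 mitochondrial folding and proteolysis genes, GRPEL2 and LONP1 rose at SRM IC50, by 0.40 and 0.28, and CLPX fell at both FPM doses. Of 9 other HSF1 targets and HSF genes, HSF2 fell at FPM IC25, FPM IC50 and SRM IC25 (-0.24, -0.26 and -0.38), the small heat shock protein gene CRYAB fell at FPM IC50 (-0.57), and none was called at SRM IC50.

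The 10 members without enough reads for a test were DNAJA4, DNAJB8, DNAJB13, HSPA6, HSPB2, the read-through gene HSPB2-C11orf52, HSPB3, HSPB6, HSPB9 and CCT8L2. DNAJA4 had 5, 41, 20, 8 and 16 counts over the UNT, FPM IC25, FPM IC50, SRM IC25 and SRM IC50 libraries. CCT8L2 and the read-through gene had 0 counts in all 15 libraries, which allows up to the floor of 3 counts in each, 0.0504 to 0.309 CPM.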

How the data were processed

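Polyadenylated RNA was measured in 15 libraries of 5 groups. HISAT2 2.2.1, SAMtools 1.10, featureCounts (Subread 2.0.15) and the GRCh38 build are named per the submitters' processing notes. The deposited table gives raw counts of reads per gene as whole numbers. A deposited FPKM table was also made by the authors, and 1 further column, gene length, belongs to no sample. Annotation release, strand setting and treatment of multi-mapping reads: not given in the sources used here.

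From the counts, edgeR 4.0.16 (R 4.3.3) fitted 5 group means to all 15 libraries after filterByExpr and TMM, with the robust quasi-likelihood F test, in 7 comparisons. Benjamini-Hochberg adjustment ran over all genes at a threshold of 0.05, and adjusted p-values are edgeR's unless another tool is named. Fold changes carry their SE. Alternatives were DESeq2 1.42.0, its size factors, no filter, a replicate block, removal of a GC trend, the 2 groups alone, each library left out, and limma 3.58.1 on log2 of the authors' FPKM plus 1 or 0.1 (minimum FPKM 0.5, or no filter). Scripts were tested on simulated data. GC and neighbouring genes came from GENCODE 29. Replicate pairs differed by more than sampling noise. Same-numbered libraries deviated together in all 3 pairs between the FPM doses, where the block left the count of calls at 0. Floors are 3 counts; floors and intervals cover counting error only, since no source used here names molecular identifiers.

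Members and lists were chosen with earlier results of these data known. Named are, per comparison, up to 6 called members in each direction with the largest change and a mean of at least 1 CPM, plus HSF1, the textbook chaperones and the untested members. Other genes are named as examples of their role or list.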

Additional observations from a re-analysis of the deposited data

Results flagged for a closer look

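The levels of 3 members differed between the IC50 groups of the 2 particles, by the contrast of SRM IC50 with FPM IC50 in edgeR, while their calls against UNT had opposite signs. HSPB8 had a log2 difference of -2.19, DNAJB5 of 1.17 and HSPA9 of 0.61. All 3 were called again in each of the 6 fits that left out 1 library of these groups. For FPM IC50 against UNT, the calls of DNAJB5 and HSPA9 were each kept in 3 of 6 fits that leave out 1 library, and that of HSPB8 in 6. The HSPA9 call there was also lost with a GC trend removed.

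A signal outside the members was the antisense gene HSPA12A-AS1, left out of the family by its name. It was at 0.106 ± 0.0804 CPM in UNT, 0.709 ± 0.132 at FPM IC25 and 0.807 ± 0.166 at FPM IC50 (SD, n = 3), with log2 fold changes of 2.55 and 2.78. UNT libraries held 6 counts in all, 0.0587 to 0.199 CPM, near the floor of 3 counts, and SRM libraries were at 0.0678 to 0.227 CPM. The gene did not pass the low-count filter without the FPM libraries, so its fold changes are a description. Of the 52 left-out genes 4 could be tested, and 1 was called against UNT. The part of the raised antisense share of the FPM libraries in this result was not tested.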

How the results depend on the processing

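Of the values of named members under the alternatives, 1949 kept their side of the threshold, 92 of them uncalled values whose sign changed, 275 lost their call, 42 gained one and 0 called values changed sign. Counts of called members moved as follows. The share of all genes called is given above for GC correction and the opposite-strand fit, against UNT. It is not given for the other alternatives here and below, so their counts cannot be read as particular to the members. At FPM IC25 (12 called), GC correction gave 6, the 2 groups alone 5, limma on log2(FPKM + 1) 5, with + 0.1 6, and unfiltered 6. At FPM IC50 (18), these gave 11, 8, 11, 11 and 10. At SRM IC25 (10), DESeq2 gave 18, and GC correction, the 2 groups alone, unfiltered limma and a fit without the FPM libraries each gave 0. At SRM IC50 against UNT (18), the 2 groups alone gave 9 and unfiltered limma 11. With no opposite-strand gene within 5 kb, which leaves 15 members, counts were 0 (FPM IC25), 0 (FPM IC50), 2 (SRM IC25), 5 (SRM IC50), 10 (SRM IC50 against SRM IC25) and 7 (against FPM IC50), and medians -0.10, -0.054, -0.11, -0.064, 0.10 and -0.10, the last of opposite sign to the 0.16 of all 77 members; the smaller set is part of this alternative's construction. The fit without the FPM libraries and the opposite-strand one were added after seeing the data. Medians moved to -0.10 (FPM IC25) and -0.047 (SRM IC25) with GC correction. With limma they moved to -0.066, -0.082 (+ 0.1) and -0.044 (unfiltered) at FPM IC25 and to -0.078, -0.084 and -0.037 at FPM IC50; unfiltered, they were -0.046 at SRM IC25, 0.10 for SRM IC50 against SRM IC25 and 0.077 against FPM IC50. The cause of the other moves was not tested.

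Leaving out 1 library gave 2 to 16 calls at FPM IC25, 6 to 21 at FPM IC50, 0 to 13 at SRM IC25, 10 to 18 at SRM IC50, 26 to 32 against SRM IC25, 34 to 39 against FPM IC50 and 0 to 0 between the FPM doses. Medians ranged from -0.18 to -0.10, -0.22 to -0.14, -0.19 to -0.066, -0.02 to 0.06, 0.13 to 0.23, 0.14 to 0.23 and -0.05 to 0.01 in that order.

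Correlations of deviations between same-numbered libraries ranged from -0.14 to 0.44. All 3 pairs exceeded 0.1 between the FPM doses alone among the 7 comparisons (0.18 to 0.26); there each of the 6 libraries correlated best with its own number, against 3 to 5 of 6 in the others, a hint from the data and not the design. With a replicate block, calls were 20 (FPM IC25), 25 (FPM IC50), 22 (SRM IC25), 21 (SRM IC50), 46 (against SRM IC25), 47 (against FPM IC50) and 0 (between FPM doses, as without it); at SRM IC50 against UNT it added HSPA4, HSPA1B and HSPB1 (adjusted p = 0.0061) and lost none.

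Depth limits members near the floor of 3 counts, which is 0.0504 to 0.309 CPM in a library.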
